A study of Mus musculus with 24 samples.

Results

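The genes of vasopressin and cAMP signaling were examined in whole mouse kidneys that carried the RC allele of Pkd1, with or without the miR-17 motif of its 3′ UTR. The 10 genes were chosen by name, as rows of the count table whose gene symbol was the V2 receptor (Avpr2), an adenylyl cyclase (Adcy3, Adcy5, Adcy6), a phosphodiesterase (Pde1a, Pde3a, Pde4c), a protein kinase A subunit (Prkaca, Prkar1a) or the transcription factor Creb1. They are 10 of the 54532 genes counted, and all 10 passed the filter on low values (a log2 CPM, that is counts per 1000000 of the library total, averaging -3 or more).

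In the collecting duct, vasopressin binds the V2 receptor, whose G protein stimulates adenylyl cyclases to make cAMP. Phosphodiesterases break cAMP down, and cAMP releases the catalytic subunits of protein kinase A from their regulatory subunits, so that they can phosphorylate aquaporin and, in the nucleus, CREB. Raised cAMP drives fluid secretion and cell growth in polycystic kidney disease, and blocking the V2 receptor is an approved treatment of that disease.

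The mice numbered 24, of strain C57BL/6 by the labels (C57BL/6 J in the study's methods) and 18 days old, and each gave 1 RNA library. The RC allele is a missense allele of Pkd1, which encodes polycystin-1, and all 24 mice carried it opposite a floxed Pkd1 allele. The RC/+ group (3 mice) had no Cre, so the floxed allele stayed intact, while in the RC/- group (5 mice) Cre driven by the Ksp-cadherin promoter, which is active in renal tubule epithelium, removed it. The RC/+ D18 (3 mice) and RC/- D18 (5 mice) groups carried the same alleles with the miR-17 motif deleted from the RC allele, in a line that came from founder 3. The RC/+ D53 (3 mice) and RC/- D53 (5 mice) groups came in the same way from founder 2. The labels call RC/+ kidneys control and RC/- kidneys cystic. Each edited line thus goes back to 1 founder. Cre was carried by every RC/- mouse and by no RC/+ mouse, so that Cre itself and the loss of the floxed allele cannot be told apart. No founder is given for the RC/+ and RC/- groups, so they could not be matched to the edited lines by founder. The paper describes earlier deaths among RC/- progeny of founder 2 than of founder 3.

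The libraries held 20379982 to 30837488 counts. Libraries 20 to 27, which are 3 of the 5 RC/- D18 and all 5 RC/- D53 libraries, stood apart through skeletal muscle genes: their summed level over 6 muscle genes reached 180.2 CPM in RC/- D18 and was 147 to 194 CPM in RC/- D53, against 5.27 to 9.36 CPM in the 14 libraries of the other groups. Where leaving these libraries out, or fitting them as a covariate, ends a member's call, this is said beside it. Across all genes, 37.6% of the 22570 tested differed between RC/- and RC/+ kidneys (limma-trend, Benjamini-Hochberg adjusted p below 0.05). All genes together had a median log2 fold change of 0.14 when libraries were scaled to their total counts, as the study did, and 0.01 with TMM scaling, and the split of these calls was 5753 higher and 2744 lower with totals against 3842 and 3895 with TMM. Small differences of single genes therefore depend on the scaling, and where this ends a call it is said beside the gene.

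Per kilobase of exon, Prkar1a was the most abundant of the 10 transcripts, at 105 ± 10.9 CPM per kb (SD, n = 24 libraries). Adcy6 followed at 30.03 ± 3.97 and Prkaca at 28.5 ± 2.29 CPM per kb, with Adcy6 the higher of the pair in 17 of 24 libraries, which included 5 of 5 RC/- D18 but 1 of 5 RC/- libraries. The order of Pde4c (13.6 ± 3.94) and Pde1a (12.9 ± 1.65) also differed by group. Pde1a was the higher in all 5 RC/- libraries (means of 11.8 against 7.85 CPM per kb), and the 14 libraries with Pde4c higher all belonged to the other groups. Creb1 stood at 4.37 ± 0.419, Pde3a at 2.64 ± 0.516, Adcy5 at 2.40 ± 0.513 and Adcy3 at 0.963 ± 0.279 CPM per kb, all on the scale of CPM per kb. Avpr2 was lowest, at 0.0835 ± 0.0396 CPM per kb. The ranges of Creb1 and Pde3a, of Pde3a and Adcy5, and of Adcy5 and Adcy3 overlapped across libraries, though within a library Creb1 exceeded Pde3a, and Adcy5 exceeded Adcy3, in 24 of 24.

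**Figure D1:**
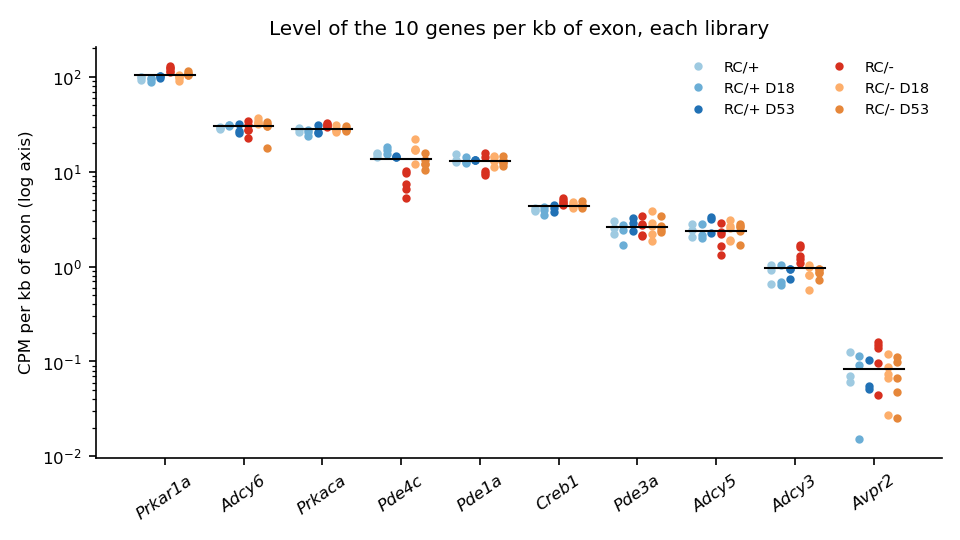
Level of each of the 10 genes in CPM per kb of exon (vertical log axis), with 1 point per library coloured by group and a black line at the mean of the 24 libraries. Prkar1a lies near 105 CPM per kb, with Adcy6 and Prkaca side by side near 30, and Avpr2 lies below every other gene.

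Avpr2 (ENSMUSG00000031390, chromosome X, 73892102 to 73895502, plus strand, GRCm38) encodes the V2 receptor, through which vasopressin acts on principal cells. It was counted with only 1 to 11 reads per library, 143 reads over all 24. Of its 2886 exon bases, 2347 (81.3%) also lie in exons of Arhgap4 on the opposite strand, which leaves 539 bases that belong to Avpr2 alone. The counts behave as if strand had not been used: of 453 genes whose every exon base is shared only with genes of the opposite strand, 449 (99.1%) were at 0 in all 24 libraries, against 35.5% of all genes. The level of Avpr2 was thus read from a small part of the gene, and its position at the bottom of the list held when each gene was divided by its unshared bases (0.447 ± 0.212 CPM per kb for Avpr2 and 1.24 ± 0.358 for Adcy3). A difference in the V2 receptor would have to be large to be detected from so few reads.

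With that limit, Avpr2 averaged 0.248 ± 0.0995 CPM in RC/+ kidneys (SD, n = 3) and 0.339 ± 0.137 CPM in RC/- kidneys (n = 5). The log2 fold change was 0.32 with an SE of 0.42, and the limma-trend adjusted p was 0.602. The cystic kidneys of the edited lines averaged 0.217 ± 0.0987 CPM (D18) and 0.203 ± 0.103 CPM (D53), and the groups overlapped in every comparison. Among 7 other principal cell genes, 6 rose in RC/- against RC/+ kidneys, including Aqp2, the vasopressin-regulated water channel (log2 fold change 1.23, adjusted p = 0.0100, limma-trend), and their summed level was 2555 to 4929 CPM in RC/- against 1172 to 1453 CPM in RC/+ libraries. In bulk kidney, more cells of a type and more RNA per cell cannot be told apart. The log2 ratio of Avpr2 to these 7 genes within a library was -8.68 ± 0.474 in RC/+ and -9.78 ± 0.739 in RC/- kidneys, with groups that overlapped. It was -8.76 ± 0.347 in RC/+ D53 and -9.79 ± 0.460 in RC/- D53 kidneys, with groups that did not overlap. In RC/+ D18 it was -9.025 ± 0.9315 and in RC/- D18 kidneys -9.23 ± 0.483, with groups that overlapped. No test was run on this ratio, which rests on the same 1 to 11 reads.

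**Figure D2:**
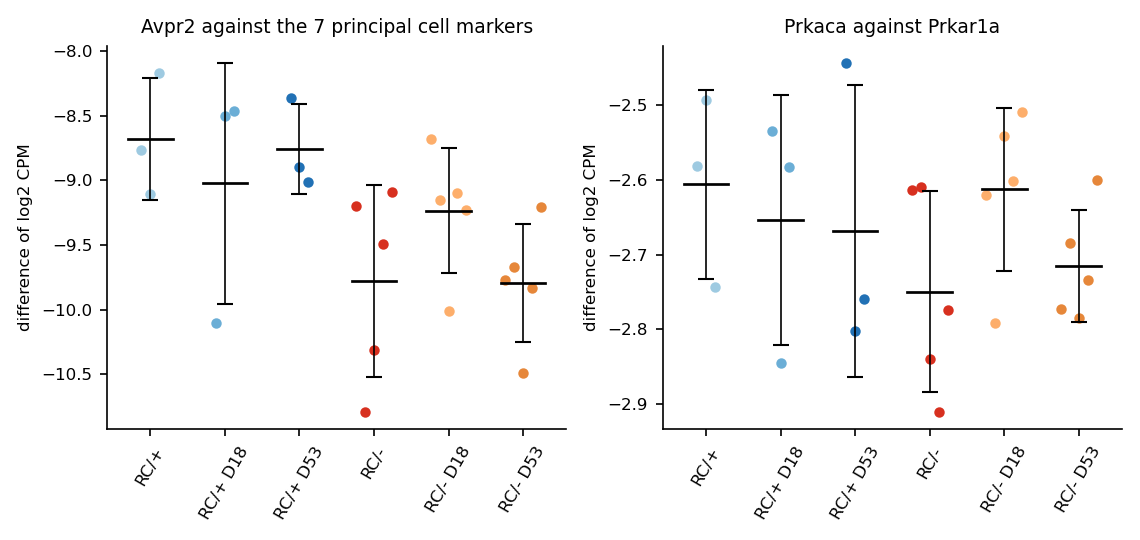
Log2 ratio of Avpr2 to the mean of 7 principal cell genes (left) and of Prkaca to Prkar1a (right), as differences of log2 CPM, with 1 point per library and black bars for the group mean and SD. On the left the RC/- libraries run from -10.8 to -9.09 and the RC/- D53 libraries from -10.49 to -9.21, and 1 RC/+ D18 library lies at -10.1. On the right the groups overlap.

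Of the 10 genes, 4 passed the threshold between RC/- and RC/+ kidneys, where 37.6% of all genes did. Adcy3, Prkar1a and Creb1 were higher and Pde4c was lower in cystic kidneys. The median log2 fold change of the 10 was 0.09, beside 0.14 for all genes tested. In RC/- D18 against RC/- kidneys 4 of 10 were called, where 41.2% of all genes were: Adcy3, Prkar1a and Prkaca were lower and Pde4c was higher. In RC/- D53 against RC/- kidneys 3 of 10 were called, where 30.2% of all genes were: Adcy3 and Prkar1a were lower and Pde4c was higher. The shares of called genes were close to the background in these comparisons, and all 3 comparisons share the 5 RC/- libraries.

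**Figure D3:**
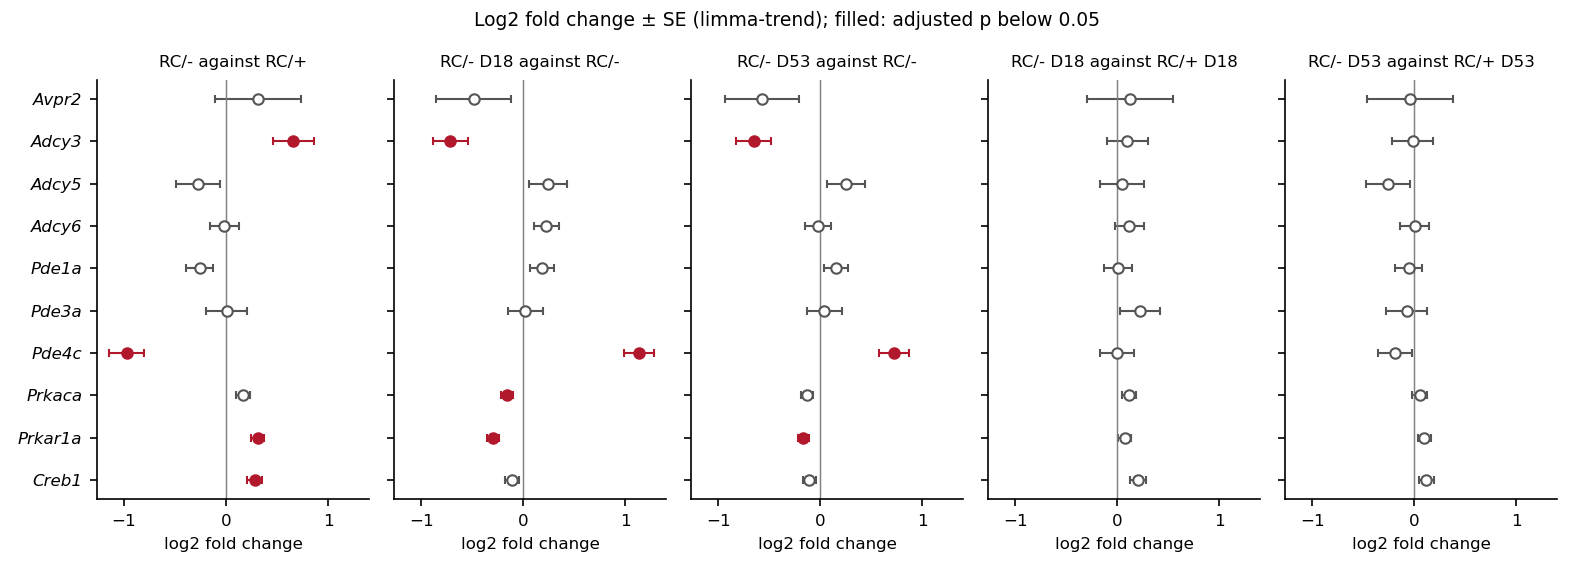
Log2 fold change (horizontal axis) with its SE for the 10 genes in 5 comparisons, where filled red points have a limma-trend adjusted p below 0.05 and open points do not. Pde4c, Adcy3 and Prkar1a are filled in the first 3 panels, with opposite signs between the first and the other two, and no point is filled in the comparisons within the edited lines.

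Pde4c (ENSMUSG00000031842, chromosome 8, 70723720 to 70751186, plus strand) encodes a cAMP-specific phosphodiesterase that is found at the primary cilium of tubule cells. It was at 87.8, 85.1 and 79.2 CPM in the 3 RC/+ kidneys. In the 5 RC/- kidneys it was at 53.8, 56.8, 41.8, 29.9 and 37.2 CPM. Every RC/- value lay below every RC/+ value, and the means of 43.9 ± 11.3 and 84.1 ± 4.41 CPM (SD) gave a fold of 0.509 (log2 fold change -0.97, SE 0.17, limma-trend adjusted p = 6.64e-05).

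In the D18 line, Pde4c of RC/- kidneys was at 94.6, 123, 66.8, 94.3 and 98.4 CPM, and in RC/- D53 kidneys at 67.0, 87.6, 68.1, 74.4 and 58.6 CPM. Both groups lay wholly above the RC/- group. Against RC/- kidneys the log2 fold change was 1.13 (SE 0.15, limma-trend adjusted p = 1.17e-06) in D18 and 0.72 (SE 0.15, adjusted p = 0.000525) in D53. In the 2 RC/- D18 libraries outside the set with muscle genes, which held the values of 94.6 and 123 CPM, the log2 fold change against RC/- was 1.34 (adjusted p = 5.37e-05). RC/- D53 has no library outside that set.

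Within the edited lines Pde4c did not pass between cystic and control genotype. RC/+ D18 kidneys were at 86.6, 94.2 and 101 CPM, so that the log2 fold change of RC/- D18 over RC/+ D18 was -0.002 (SE 0.17, limma-trend adjusted p = 0.999). RC/+ D53 kidneys were at 80.3, 81.6 and 79.4 CPM, and the log2 fold change of RC/- D53 over RC/+ D53 was -0.19 (SE 0.17, adjusted p = 0.709). The difference between the cystic contrasts was itself tested in limma-trend. It was 0.97 (SE 0.24, adjusted p = 0.00636) for D18 against the unedited groups, and Pde4c was the 1 gene of 10 called there, where 17.1% of all genes were. For D53 it was 0.78 (SE 0.24, adjusted p = 0.0356), again the 1 of 10 called, where 11.3% of all genes were. Leaving out single libraries ended the D53 call in 11 of 16 cases, with an adjusted p of up to 0.0778, and with libraries 20 to 27 as a covariate (adjusted p = 0.0595).

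The genes whose log2 CPM followed Pde4c most closely over the 24 libraries were Nlrp6 (Pearson r = 0.971) and Slc47a1 (r = 0.963), the latter a proton-coupled exporter of organic cations. Within groups, after each group's mean was removed, these values were 0.879 and 0.853. All 7 proximal tubule markers fell in RC/- against RC/+ kidneys and all 7 rose in both edited cystic groups against RC/- kidneys. Their summed level ran from 6092 to 6564 CPM for RC/+ and from 1277 to 3161 CPM for RC/- libraries, then from 5472 to 7611 CPM for RC/- D18 and from 4440 to 5620 CPM for RC/- D53 libraries. Other markers moved likewise in RC/- against RC/+ kidneys. Of 6 thick ascending limb and distal convoluted tubule markers 4 fell and 1 rose, of 5 podocyte markers 4 fell and 1 rose, and of 5 intercalated cell markers 3 fell and 1 rose. In each edited cystic group against RC/- kidneys 4 markers of each of these sets rose and at most 1 fell. Of 5 endothelium markers 3 fell in RC/- against RC/+ kidneys. Against RC/- kidneys 3 endothelium markers rose in RC/- D18 and 2 in RC/- D53. Called principal cell, macrophage and smooth muscle markers went the other way. The part of these changes in the level of Pde4c was not tested.

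**Figure D4:**
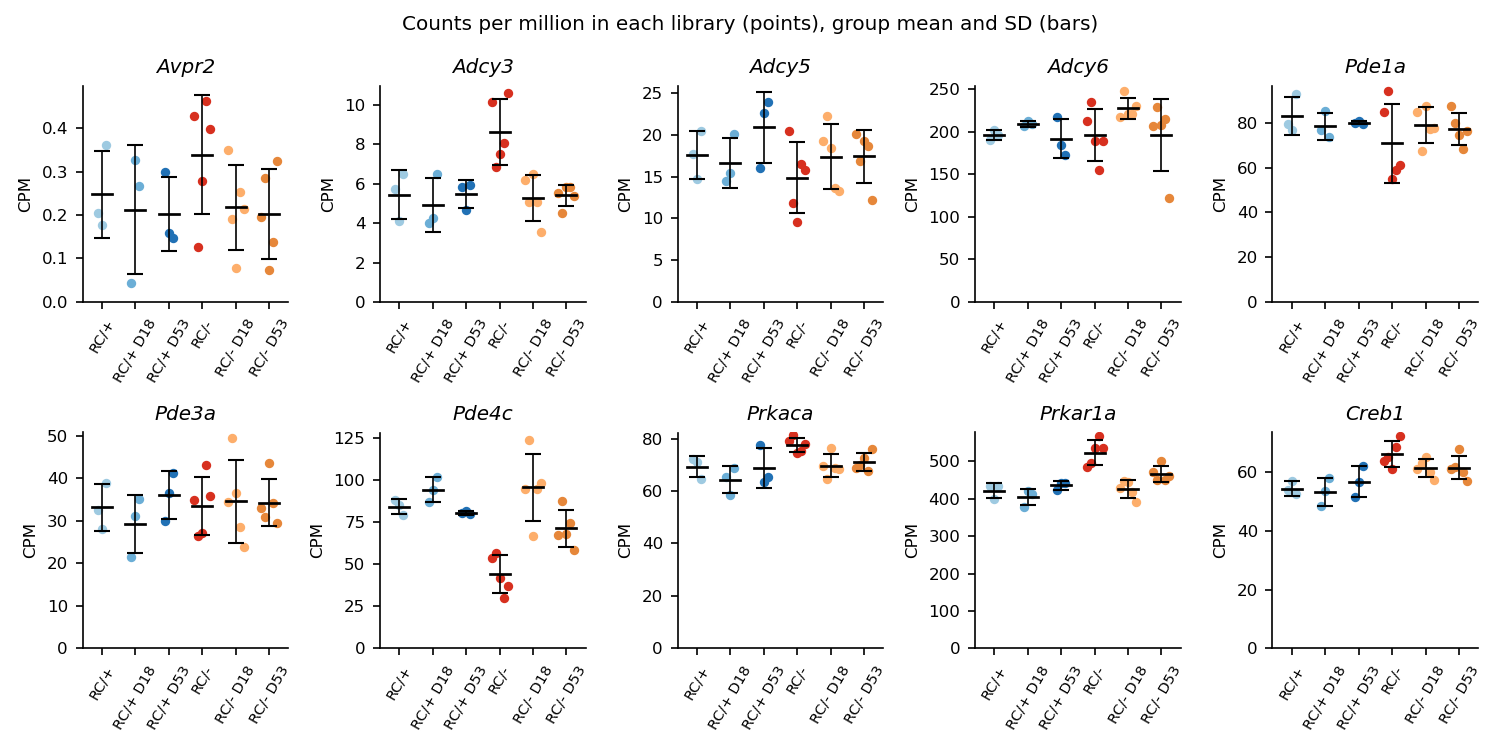
CPM of each of the 10 genes by group (horizontal axis), with 1 point per library, a thick bar at the group mean and error bars of 1 SD, on axes that start at 0. The 5 RC/- values of Pde4c, from 29.9 to 56.8 CPM, lie below all other libraries, and those of Adcy3 and Prkar1a lie high.

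Pde1a (chromosome 2, 79834453 to 80129458, minus strand) encodes a calcium- and calmodulin-stimulated phosphodiesterase. Its RC/+ values ran from 76.8 to 92.9 CPM and its RC/- values from 55.2 to 94.6 CPM, where 3 libraries were at 55.2, 58.9 and 61.1 CPM and the other 2 at 85.1 and 94.6 CPM. The log2 fold change was -0.26 (SE 0.13, limma-trend adjusted p = 0.132). Scaling decided this call: with TMM factors the log2 fold change was -0.40 (adjusted p = 0.0229), by edgeR's quasi-likelihood test -0.37 (adjusted p = 0.0342) and by DESeq2 -0.37 (adjusted p = 0.0312). It also passed without the RC/- library at 94.6 CPM (log2 fold change -0.37, adjusted p = 0.0147). With all libraries and total counts Pde1a did not pass in the other comparisons. In RC/- D18 against RC/- the log2 fold change was 0.19 (adjusted p = 0.208). It passed there with TMM factors (0.30, adjusted p = 0.0408) and without the RC/- library at 94.6 CPM (0.30, adjusted p = 0.0227), but not by edgeR (0.28, adjusted p = 0.0645) or DESeq2 (0.27, adjusted p = 0.0649), nor without libraries 20 to 27 (0.13, limma-trend adjusted p = 0.618).

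Pde3a (chromosome 6, 141249269 to 141507448, plus strand) encodes a phosphodiesterase that cyclic GMP inhibits. RC/+ kidneys averaged 33.1 ± 5.45 CPM and RC/- kidneys 33.5 ± 6.89 CPM (log2 fold change 0.01, SE 0.20, limma-trend adjusted p = 0.987). The cystic kidneys of the edited lines averaged 34.5 ± 9.71 CPM (D18) and 34.2 ± 5.57 CPM (D53). Its sign in RC/- against RC/+ turned to -0.13 with TMM factors, without a call. Its closest patterns were those of Adamts5 (r = 0.887 over 24 libraries) and Palmd (r = 0.875).

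Adcy3 (ENSMUSG00000020654, chromosome 12, 4133103 to 4213525, plus strand) encodes a membrane adenylyl cyclase. It was at 5.76, 4.11 and 6.50 CPM in RC/+ kidneys. In RC/- kidneys it was at 10.2, 6.84, 7.51, 8.06 and 10.6 CPM, all above the RC/+ group. The log2 fold change was 0.66 (SE 0.20, fold 1.58, limma-trend adjusted p = 0.0108). This call rests on the lowest RC/+ library: without the one at 4.11 CPM the log2 fold change was 0.47 and the adjusted p 0.108. Of the 6246 exon bases of Adcy3, 22.1% lie in exons of Cenpo on the opposite strand, so its level comes from the rest.

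Among RC/- D18 kidneys Adcy3 was at 6.18, 5.08, 6.51, 5.06 and 3.55 CPM, and in RC/- D53 kidneys at 5.51, 4.52, 5.83, 5.83 and 5.38 CPM. All 10 of these values lay below every RC/- value. Against RC/- this made -0.71 in D18 (SE 0.17, limma-trend adjusted p = 0.00173) and -0.65 in D53 (SE 0.17, adjusted p = 0.00541) on the log2 scale. In the 2 RC/- D18 libraries outside the set with muscle genes, at 6.18 and 5.08 CPM, the log2 fold change was -0.60 and missed the threshold (adjusted p = 0.0627). With libraries 20 to 27 as a covariate both calls were lost, at -0.60 for D18 (adjusted p = 0.0557) and -0.46 for D53 (adjusted p = 0.408). The differences between the cystic contrasts were -0.56 for D18 (adjusted p = 0.189) and -0.67 for D53 (adjusted p = 0.128), so neither passed. The most similar genes were Adgra2 (r = 0.942 over 24 libraries, 0.893 within groups) and Tcf7 (r = 0.926 and 0.859). In the same comparison of RC/- with RC/+, 4 of 6 smooth muscle and myofibroblast markers rose, with summed levels of 610 to 1276 CPM in RC/- against 320 to 406 CPM in RC/+ libraries. All 7 macrophage markers and 6 of 7 principal cell markers rose as well. Called markers of the other kidney cell sets all or mostly fell. The part of these cell types in the level of Adcy3 was not tested.

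Adcy6 (chromosome 15, 98589973 to 98610076, minus strand), a calcium-inhibited cyclase that serves the V2 receptor in the collecting duct, was the most abundant cyclase per kb of the 3. It was at 190, 202 and 196 CPM in RC/+ kidneys and at 213, 235, 189, 155 and 189 CPM in RC/- kidneys, with overlap and a log2 fold change of -0.02 (SE 0.14, limma-trend adjusted p = 0.948). All 5 RC/- D18 kidneys, from 217 to 247 CPM, lay above the 3 RC/+ D18 kidneys, from 206 to 213 CPM, yet the log2 fold change was 0.12 (SE 0.14, adjusted p = 0.900). Against RC/- the D18 value was 0.23 (adjusted p = 0.149) with total counts, and it passed with TMM factors (0.34, adjusted p = 0.0299), edgeR (0.33, adjusted p = 0.0325) and DESeq2 (0.33, adjusted p = 0.0271). Without libraries 20 to 27 it was 0.26 (limma-trend adjusted p = 0.136).

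Adcy5 (chromosome 16, 35154877 to 35305738, plus strand), a close relative of Adcy6 with the same inhibition by calcium, averaged 17.6 ± 2.87 CPM in RC/+ kidneys and 14.9 ± 4.27 CPM in RC/- kidneys (log2 fold change -0.28, SE 0.22, limma-trend adjusted p = 0.338). It passed in none of the comparisons. Its nearest gene was Pdgfra (r = 0.837), a receptor of fibroblasts, and that of Adcy6 was Ppip5k1 (r = 0.927). Among the members themselves, Adcy5 and Pde3a had an r of 0.735 over 24 libraries and of 0.802 within groups, and Adcy5 and Adcy6 had values of 0.144 and 0.195. These libraries share scaling and composition, so such values describe these samples only.

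Protein kinase A is held inactive by its regulatory subunits. Prkar1a (ENSMUSG00000020612, chromosome 11, 109649405 to 109669656, plus strand), which encodes regulatory subunit type I alpha, was at 433, 399 and 434 CPM in RC/+ kidneys. In RC/- kidneys it was at 484, 496, 535, 568 and 534 CPM. The groups did not overlap, and the log2 fold change was 0.31 (SE 0.064, fold 1.24, limma-trend adjusted p = 0.000411). RC/- D18 kidneys were at 429, 448, 446, 418 and 391 CPM, all below the RC/- group (log2 fold change -0.30, SE 0.055, adjusted p = 0.000123). Without libraries 20 to 27 that value was -0.25 (adjusted p = 0.0178).

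In RC/- D53 kidneys Prkar1a was at 471, 449, 502, 451 and 461 CPM, which overlapped the RC/- group. The log2 fold change was -0.16 (SE 0.055, limma-trend adjusted p = 0.0260). This call was lost with TMM factors (-0.08, adjusted p = 0.305), edgeR (-0.08, adjusted p = 0.271) and DESeq2 (-0.09, adjusted p = 0.139), with libraries 20 to 27 as a covariate (-0.09, adjusted p = 0.625), and without any of 5 single libraries (RC/- replicates 15, 16 and 17 and RC/- D53 replicates 24 and 26), where the adjusted p rose to 0.0818 at most. The differences between the cystic contrasts, -0.23 for D18 (adjusted p = 0.0777) and -0.21 for D53 (adjusted p = 0.137), did not pass with all libraries. The D18 difference passed without RC/+ D18 replicate 7 (-0.28, adjusted p = 0.0417) and without RC/- replicate 13 (-0.26, adjusted p = 0.0462). Emp1 (r = 0.967, 0.851 within groups) and Rab12 (r = 0.966, 0.922 within groups) had the patterns most like that of Prkar1a over the 24 libraries.

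Prkar1a was also the 1 gene of the 8 members with a promoter window in RefSeq (GRCm38.p6; 250 bases before to 50 after a transcript start) that held the whole cAMP response element TGACGTCA, the palindrome that CREB binds. It lies at chr11:109650900-109650907, 49 bases before one annotated start and 38 bases after another. Its shorter form TGACG, searched on both strands and counted also within whole elements, was present in windows of Prkar1a, Prkaca and Pde1a. Of 27025 genes with at least 1 such window, 2.03% held the whole element and 23.05% the shorter form. The windows around the Prkar1a element and around the TGACG match of Prkaca nearest its start are shown because they are the matches in the kinase subunits, with the match in capitals, 5′ to 3′ on the plus strand.
Prkar1a element: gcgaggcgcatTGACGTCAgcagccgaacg
Prkaca match: ggctgcgggggCGTCAcggacagaggactt
The Prkaca match, TGACG read on the minus strand, lies at chr8:83972972-83972976. A match describes these letters and says nothing of whether CREB was bound there.

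Prkaca (chromosome 8, 83972993 to 83996443, plus strand) encodes the catalytic subunit alpha. It was at 72.3, 70.9 and 64.7 CPM in RC/+ kidneys and at 79.1, 81.2, 74.7, 75.4 and 78.1 CPM in RC/- kidneys. The groups did not overlap, but the log2 fold change of 0.17 (SE 0.072) had a limma-trend adjusted p of 0.0740, and with TMM factors it was 0.03 (adjusted p = 0.827). RC/- D18 kidneys were at 69.7, 64.7, 76.6, 68.9 and 68.6 CPM (log2 fold change against RC/- -0.16, SE 0.063, adjusted p = 0.0453). That call was lost with TMM factors (-0.04, adjusted p = 0.654), by edgeR (adjusted p = 0.653) and DESeq2 (adjusted p = 0.650), without libraries 20 to 27 (adjusted p = 0.0877), and without any of 8 single libraries (RC/- replicates 13, 14, 16 and 17 and RC/- D18 replicates 18, 19, 21 and 22), with an adjusted p of 0.116 at most. Fitting libraries 20 to 27 as a covariate also ended it, and 15 of 19 alternatives did in all. The within-library log2 ratio of Prkaca to Prkar1a, on which scaling has no bearing, averaged -2.61 ± 0.127 for RC/+ and -2.75 ± 0.135 for RC/- kidneys, with -2.61 ± 0.110 for the D18 and -2.72 ± 0.0756 for the D53 cystic kidneys, and the groups overlapped in all 8 comparisons.

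Creb1 (ENSMUSG00000025958, chromosome 1, 64532645 to 64604548, plus strand) encodes the transcription factor that protein kinase A phosphorylates. The count measures its transcript and not that phosphorylation. Among the 10 genes it was the 1 with matches to the miR-17 seed in its annotated 3′ UTR: 3 matches to GCACTTT, the reverse complement of bases 2 to 8 of miR-17-5p, where 12.4% of 21014 protein-coding genes held at least 1. Its longest annotated 3′ UTR has 7170 bases, and that of Pde3a, with 8555 bases, held none. The sequences below show the seed (capitals) and the matches (capitals), with the match in the Pkd1 3′ UTR for comparison, since the D18 and D53 lines lack a miR-17 motif of Pkd1 and not of Creb1.
miR-17-5p: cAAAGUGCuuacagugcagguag
Pkd1: atggggcttctGCACTTTaaaaaggctgtg
Creb1 match a: tatatatagtgGCACTTTtatctatagggc
Creb1 match b: tgctgtaacttGCACTTTtttttaaggacc
Creb1 match c: aattctttttaGCACTTTtttgagtaaggc
The mature miRNA is encoded at chr14:115043684-115043706 (plus strand), the Pkd1 match lies at chr17:24595732-24595738, and the Creb1 matches lie at chr1:64599827-64599833, chr1:64600990-64600996 and chr1:64603167-64603173 (GRCm38). A match of letters does not show that miR-17 acts there.

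Creb1 was at 53.8, 57.2 and 52.5 CPM in RC/+ kidneys and at 64.0, 65.2, 61.2, 68.6 and 72.4 CPM in RC/- kidneys. The groups did not overlap (log2 fold change 0.28, SE 0.075, fold 1.22, limma-trend adjusted p = 0.00459). This call was lost with the other scalings: the log2 fold change was 0.14 with TMM factors (adjusted p = 0.101), 0.14 by edgeR (adjusted p = 0.0947) and 0.15 by DESeq2 (adjusted p = 0.0830). In RC/- D18 and RC/- D53 kidneys Creb1 was at 61.4 ± 3.04 and 61.6 ± 4.02 CPM, and neither passed against RC/- (limma-trend adjusted p of 0.190 and 0.250). Within D18 the log2 fold change of RC/- D18 over RC/+ D18 was 0.20 (unadjusted p = 0.0123 in limma-trend, adjusted p = 0.367). Rapgef6, an exchange factor for the small G protein Rap, had the pattern most like that of Creb1 (r = 0.902 over 24 libraries, 0.777 within groups).

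Within each edited line none of the 10 genes passed between cystic and control genotype. In D18, where 0.266% of all genes were called, limma-trend, edgeR and DESeq2 called 0 of 10. In limma-trend 1 had an unadjusted p below 0.05 (Creb1), as did 2011 of all 22570 genes. In D53, where 2.6% of all genes were called, limma-trend, edgeR and DESeq2 called 0 of 10. There 0 had an unadjusted p below 0.05 in limma-trend, where 3013 of all 22570 genes did. Between the control genotypes, RC/+ D18 against RC/+ (0.00443% of all genes called) and RC/+ D53 against RC/+ (0% called), all 3 tools called 0 of 10. At an unadjusted p below 0.05 in limma-trend there were 0 of 10, beside 1013 (D18) and 525 (D53) of all 22570 genes. Between RC/- D53 and RC/- D18 (0.266% of all genes called) all 3 tools called 0 of 10. In limma-trend 2 had an unadjusted p below 0.05, where 2993 of all 22570 genes did. These were Pde4c, lower in D53 by a log2 fold change of -0.41 (adjusted p = 0.252, limma-trend), and Prkar1a, higher in D53 by 0.13 (adjusted p = 0.310), whose RC/- D53 values all lay above the RC/- D18 values.

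The wider pathway was described with a list of 89 other genes in 9 roles, of which 85 passed the filter on low values. Between RC/- and RC/+ kidneys 37 of 85 were called, where 37.6% of all genes were, 28 higher and 9 lower, with a median log2 fold change of 0.18 beside 0.14 for all genes. With TMM scaling the split of 36 calls was 20 higher and 16 lower. In RC/- D18 against RC/- kidneys 41 were called (13 higher, 28 lower), beside 41.2% of all genes (3238 higher, 6067 lower). Without libraries 20 to 27 there were 27, where 6051 of 22902 genes were called. In RC/- D53 against RC/- kidneys 28 were called (7 higher, 21 lower), beside 30.2% of all genes (2543 higher, 4262 lower). With libraries 20 to 27 as a covariate 8 were called, where 1796 of 22570 genes were. With TMM scaling the pathway splits were 19 higher and 22 lower in D18 and 13 and 17 in D53. Over all genes they were 4442 and 4398 in D18 and 3378 and 2962 in D53. The counts by role below are for RC/- against RC/+ with total counts unless TMM is named. Those with total counts are to be read against the 37.6% of all genes called there, 5753 higher and 2744 lower. Those with TMM are to be read against 7737 of 22572 genes called, 3842 higher and 3895 lower.

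**Figure D5:**
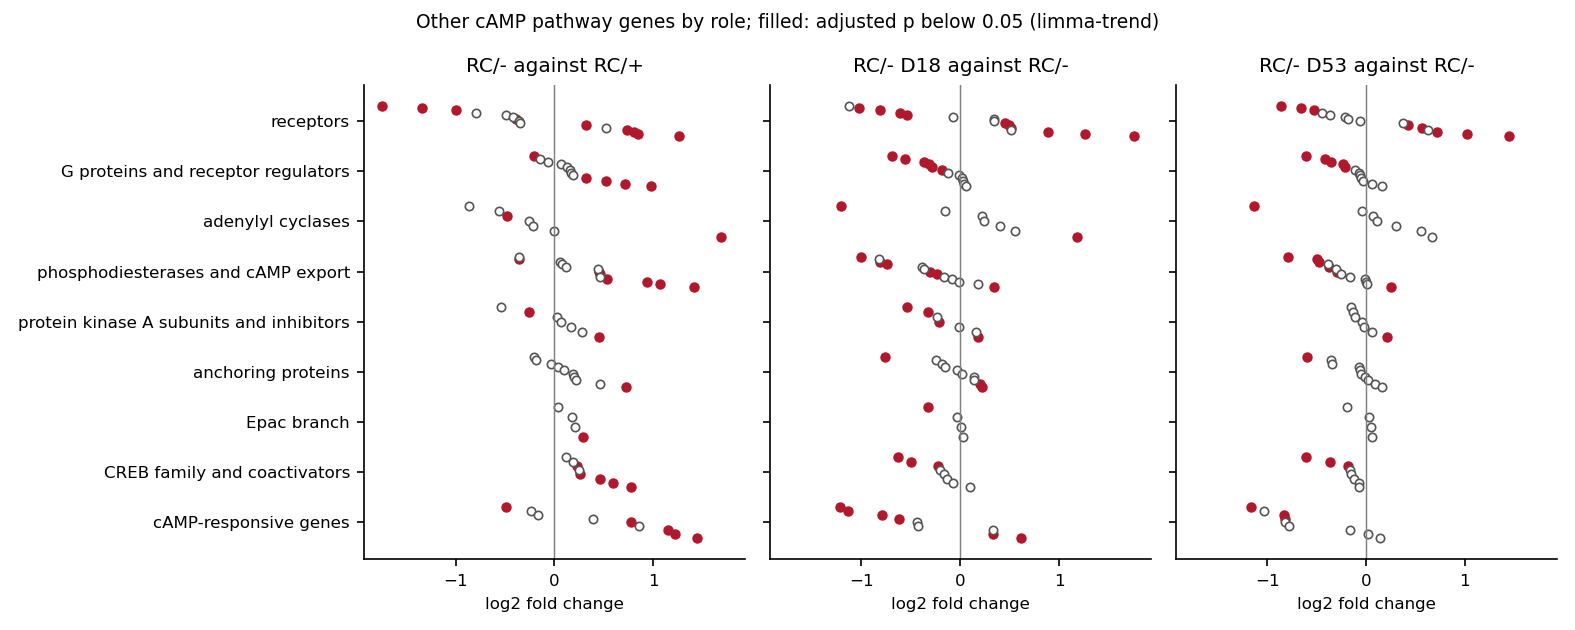
Log2 fold change (horizontal axis) of the 85 other pathway genes, grouped by role, in 3 comparisons, where filled red points have a limma-trend adjusted p below 0.05. Receptors spread to both sides, and of the called phosphodiesterases 6 of 7 lie to the right in RC/- against RC/+ with this total-count scaling.

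The receptors on the list, not all of which act mainly through cAMP, went both ways in cystic kidneys. Of 15, 9 were called, 5 higher and 4 lower, or 4 higher and 6 lower with TMM. The adenosine receptor gene Adora2b rose from 5.27 ± 0.793 CPM in RC/+ to 12.8 ± 2.05 CPM in RC/- (log2 fold change 1.26, limma-trend adjusted p = 3.20e-06), and Ptger4, a prostaglandin E receptor that stimulates cyclases, from 10.3 ± 0.925 to 18.7 ± 2.95 CPM (0.85, adjusted p = 0.000461). The glucagon receptor gene Gcgr fell from 49.1 ± 6.84 to 14.8 ± 3.68 CPM (log2 fold change -1.75, adjusted p = 4.67e-09) and Ptger3, a prostaglandin E receptor that inhibits cyclases, from 64.7 ± 3.20 to 26.3 ± 7.69 CPM (-1.34, adjusted p = 4.53e-05). Gcgr in RC/- D18 kidneys was at 49.6 ± 7.49 and Ptger3 at 61.2 ± 3.62 CPM. Each was called against RC/- in D18 and in D53.

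Of 12 G protein and receptor regulator genes, 4 rose and 1 fell. Arrb2, which encodes a beta-arrestin that uncouples and internalises receptors, rose from 18.1 ± 0.898 to 36.2 ± 6.93 CPM (log2 fold change 0.98, limma-trend adjusted p = 3.58e-07), and the receptor kinase gene Grk5 rose by 0.72 on the log2 scale (adjusted p = 6.28e-05). Gnai1, an inhibitory G protein subunit, was lower by a log2 fold change of -0.21 (adjusted p = 0.0397). Of the 7 other cyclases 1 rose and 1 fell: Adcy7 went from 6.49 ± 1.07 to 21.1 ± 3.34 CPM (1.69, adjusted p = 1.15e-09) and Adcy1 from 49.4 ± 1.34 to 35.9 ± 6.22 CPM (-0.48, adjusted p = 0.0202). On the log2 scale this value of Adcy7 exceeded those of Adcy3, Adcy5 and Adcy6, a difference that was not tested.

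Of 13 other phosphodiesterase and export genes, 6 rose and 1 fell with total counts, and 4 rose and 2 fell with TMM. Pde3b rose from 28.0 ± 2.76 to 75.2 ± 11.1 CPM (log2 fold change 1.41, limma-trend adjusted p = 4.72e-09) and Pde8b from 28.6 ± 3.36 to 60.3 ± 9.37 CPM (1.07, adjusted p = 6.12e-07), while Pde8a fell from 63.3 ± 5.71 to 49.2 ± 3.79 CPM (-0.36, adjusted p = 0.00174). Pde3b and Pde8b also stayed higher within the D53 line, with values of 0.95 (adjusted p = 5.36e-05) for the former and 0.53 (adjusted p = 0.0245) for the latter in RC/- D53 against RC/+ D53. That comparison called 5 of the 85 genes, where 2.6% of all genes were called, all higher (Adcy7, Pde3b, Pde8b, Fos and Junb). It called 10 when only its own 2 groups were fitted, where 772 of 22191 genes were called. With libraries 20 to 27 as a covariate it called 1, where 287 of 22570 genes were called. The matching D18 comparison called 0 of 85 by limma-trend, edgeR and DESeq2, where limma-trend called 0.266% of all genes. In limma-trend 11 of the 85 had an unadjusted p below 0.05, where 2011 of all 22570 genes did.

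Among the other protein kinase A genes, Pkia, which encodes an inhibitor peptide, rose (log2 fold change 0.45, limma-trend adjusted p = 0.00681) and the regulatory subunit gene Prkar2a fell (-0.25, adjusted p = 0.00658), in a direction opposite to Prkar1a, and the remaining 5 were not called. Of 10 anchoring proteins 1 was called, Akap12 (0.73, adjusted p = 0.00347), and of 4 genes of the Epac branch 1, Rap1b (0.29, adjusted p = 0.0195). With TMM these counts were 3 and 0. In the CREB family 5 of 8 rose with total counts and 3 with TMM, among the 5 Crem, which also yields a cAMP-inducible repressor (0.77, adjusted p = 0.000904), and the coactivator gene Crebbp (0.59, adjusted p = 0.00205). Of 9 cAMP-responsive genes 4 rose and 1 fell with total counts, and 2 rose and 3 fell with TMM. Junb rose from 50.5 ± 10.3 to 136 ± 14.1 CPM (1.44, adjusted p = 1.02e-07), Areg was called at a mean of only 0.227 CPM in RC/- kidneys (adjusted p = 0.0380), and Dusp1 fell from 122.5 ± 23.4 to 88.7 ± 23.3 CPM (-0.49, adjusted p = 0.0450). Many of these genes also respond to signals other than cAMP, and their change is no measure of cAMP.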

How the data were processed

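Whole-kidney RNA-seq was analysed from the deposited table of raw counts per gene. Per the labels and the study's methods, the authors trimmed paired reads with Trim Galore 0.6.3, aligned them to GRCm38 with STAR 2.5.3a and took STAR's gene counts with Ensembl models. Counts were scaled to CPM by the library total, and logarithms took a prior count of 2. Testing was by gene, for means of -3 or more in log2 CPM, with limma-trend (limma 3.58.1, R 4.3.3) in 1 model of 6 group means, two-sided, with Benjamini-Hochberg adjustment over all genes tested and a threshold of 0.05. This follows the study's own scaling, filter and test. The study's methods state no design matrix, covariate or prior count, so the model of 6 group means and the prior count were chosen here. The counts of genes called are therefore not the counts that the study reported. edgeR 4.0.16 and DESeq2 1.42.0 were alternatives. The test script was tested on simulated data.

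The 10 genes, the pathway and marker lists and the tests were chosen with earlier results of these data known. Text names the 10 genes and, in each pathway role, up to 2 genes higher and 2 lower in RC/- against RC/+ with the largest change past the threshold. It also names genes most correlated with each of the 10 except Avpr2, Pde1a and Prkaca. The genes called within D53 were named after their values were seen. Coordinates, exon overlaps and UTRs came from GENCODE M21 on GRCm38, which held 54495 of the 54532 gene IDs. Library totals of 20379982 to 30837488 leave genes with few counts, such as Avpr2, Areg and, less so, Adcy3 (92 to 240 counts per library), less precise. Replicates are separate mice.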

Additional observations from a re-analysis of the deposited data

Results flagged for a closer look

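Adcy6 was at 121.7 CPM in RC/- D53 replicate 27, far below the other 4 libraries of that group, which lay between 206.5 and 228.9 CPM. The gap took 0.791 of the group's range, above the limit of 0.71 for 5 samples. It was the 1 value marked among 36 groups of 5 checked, and chance alone marks about 1 in 20. Without this library the log2 fold change of Adcy6 in RC/- D53 against RC/- was 0.14 (limma-trend adjusted p = 0.230) in place of -0.02, and that against RC/- D18 was -0.08 (adjusted p = 0.781) in place of -0.25, with no call in either case.

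Pde4c was the 1 gene of the 10 called when cystic contrasts were compared. The contrast in D18 minus that in the unedited groups was 0.97 (limma-trend adjusted p = 0.00636), and that in D53 minus the unedited one was 0.78 (adjusted p = 0.0356). The D53 call was lost in 11 of 16 fits that left out 1 library. A gene not called was not shown to be equal between them. Pde4c was lower in 5 of 5 RC/- libraries than in any RC/+ library, and the RC/- and RC/+ groups overlapped within D18 and within D53.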

How the results depend on the processing

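With libraries 20 to 27 as a covariate, the members called fell to 2 in RC/- D18 against RC/-, where all genes called fell from 9305 to 6218. They fell to 1 in RC/- D53 against RC/- (all genes from 6805 to 1796) and to 0 in the D53 difference of cystic contrasts (all genes from 2545 to 403). The pathway genes called fell to 8 in RC/- D53 against RC/- and to 1 in RC/- D53 against RC/+ D53 (all genes from 587 to 287). Leaving those libraries out, an alternative chosen after seeing the data, gave 2 members and 27 pathway genes in RC/- D18 against RC/-. In that fit 6051 of 22902 genes were called. Without the filter the D53 difference of cystic contrasts called 0 members and 2021 of 35187 genes. With only the groups of the comparison, RC/- D53 against RC/+ D53 called 10 pathway genes and 772 of 22191 genes. Leaving out 1 library at a time gave 1 to 2 members in the D18 difference of cystic contrasts, 0 to 1 in the D53 difference and 3 to 5 pathway genes in RC/- D53 against RC/+ D53. The Avpr2 and Prkaca ratios moved by less than 1 SD under every alternative run, and no called fold change of a member reversed. No paired analysis was possible because the groups share no replicate numbers. The depth limits Avpr2, at 1 to 11 reads per library. All 5 RC/- D53 libraries lie in the set 20 to 27, so the covariate is estimated from the RC/- D18 libraries, 3 inside the set and 2 outside it.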
